A study of Mus musculus with 24 samples.

Results

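Metabotropic glutamate receptors are the receptors for glutamate that act through G proteins. Transcripts of 6 of these receptor genes, Grm2, Grm3, Grm4, Grm5, Grm7 and Grm8, were followed in laser-captured basal forebrain cholinergic neurons of mice. They were chosen by gene symbol, matched to the Ensembl identifiers of the count matrix, and make up 6 of the 55414 genes listed there. All 6 passed the filter on low counts that left 19967 genes for testing.

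The 24 libraries each came from about 500 neurons, taken from 1 male mouse of about 6 months, in the medial septum and the vertical limb of the diagonal band. Capture followed staining for choline acetyltransferase, which synthesises acetylcholine. Animals were either Ts65Dn, which carry a freely segregating extra chromosome with parts of mouse chromosomes 16 and 17 and serve as a model of Down syndrome, or disomic littermates (2N). All were offspring of Ts65Dn mothers and C57Bl/6J Eicher × C3H/HeSnJ F1 fathers. Choline chloride in the chow of dam and pups was set at 1.1 g/kg (control diet) or 5.0 g/kg (supplemented), from conception to postnatal day 21, and every animal ate the control chow after weaning. The supplemented groups therefore record early exposure, not the diet at death. By the labels the control diet had 6 libraries of 2N and 6 of Ts65Dn, and supplementation had 4 of 2N and 8 of Ts65Dn, while the design text gives 6 for every group. The chromosome part of the Ts65Dn model is broader than the segment shared with human chromosome 21, and the 17-derived piece lies near the centromere, away from Grm4. The comparisons ask how the receptor transcripts differ with genotype on each diet and with diet in each genotype.

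The receptors fall into 3 groups by sequence and coupling. Grm5 belongs to group I, which couples to Gq, activates phospholipase C and releases calcium from internal stores. Grm2 and Grm3 form group II, and Grm4, Grm7 and Grm8 belong to group III; both couple to Gi/o, lower cyclic AMP and reduce transmitter release. In the forebrain, Grm5 protein lies mostly around postsynaptic sites, Grm7 and Grm8 protein mostly at presynaptic terminals, and Grm3 is also made by astrocytes. By the GENCODE M21 annotation the genes are scattered over chromosomes 9 (Grm2), 5 (Grm3), 17 (Grm4) and 7 (Grm5), with Grm7 and Grm8 both on chromosome 6. All are protein coding.

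Total counts per library ran from 4688258 to 13443438, with a median of 10010353. Between 13102 and 22593 genes were detected, and control-diet Ts65Dn 3 and supplemented Ts65Dn 7 had the fewest. Chat RNA was under 1 CPM in 6 libraries, so the transcript of the enzyme stained for capture was nearly absent there. They were control-diet 2N 5, control-diet Ts65Dn 3, 5 and 6, supplemented 2N 3 and supplemented Ts65Dn 7. Fits without them therefore lose most from control-diet Ts65Dn. CPM are library-size-scaled counts, with TMM factors except for these Chat values. The summed CPM of 10 cholinergic markers was 188 to 279 in control-diet 2N, 8.68 to 226 in control-diet Ts65Dn, 256 to 508 in supplemented 2N and 223 to 421 in supplemented Ts65Dn. The summed CPM of 14 astrocyte markers was 1747 to 2967 over all libraries, so glial RNA was present throughout. Mitochondrial rRNA made up 22.8% ± 2.44 of counts in control-diet 2N (SD, n = 6), 20.2% ± 6.18 in control-diet Ts65Dn (n = 6), 20.3% ± 1.94 in supplemented 2N (n = 4) and 30.7% ± 8.08 in supplemented Ts65Dn (n = 8). In such captured pools, fewer cells of a type and less RNA per cell cannot be told apart.

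Grm5 and Grm7 were the most abundant of the 6 transcripts, and Grm2 was the least. Levels were ordered between genes as TPM, a share of transcripts scaled by length. Over 24 libraries the mean was 44.3 ± 27.7 TPM for Grm5 and 27.5 ± 9.87 for Grm7. Grm8 followed at 15.7 ± 11.7 TPM, Grm3 at 12.1 ± 6.70, Grm4 at 9.89 ± 6.79 and Grm2 at 3.83 ± 9.87 (SD, n = 24 each). Grm5 was the highest of the 6 in 13 libraries, Grm7 in 8, Grm8 in 2 and Grm2 in 1.

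Neighbours in this order mostly lay within each other's spread. Grm5 exceeded Grm7 in 15 of 24 libraries, and their means differed by less than the SD of Grm5. In supplemented Ts65Dn, however, Grm7 was higher in 6 of 8 libraries, with a mean of 27.9 TPM against 23.0 for Grm5. Grm7 exceeded Grm8 in 19 of 24. Grm8 and Grm3 could not be ordered, since each was higher in 12. Grm3 exceeded Grm4 in 16, and Grm4 exceeded Grm2 in 23. The median of Grm2 was 1.11 TPM, and its mean owed much to 48.6 TPM in control-diet Ts65Dn 1. There the deposited transcript length for Grm2 was 497 bases, against a median of 2363 bases over the libraries, and TPM divides the count, here 202, by that length. Deposited lengths also varied for Grm4 (942.5 to 4607 bases), Grm5 (2141 to 4933), Grm7 (1927 to 4208) and Grm8 (600.02 to 4196). That of Grm3 was 3049 bases in every library. As CPM, which is not scaled by length and so gives no order of levels between genes, Grm5 had the highest value in 19 libraries and Grm7 in 5.

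**Figure D1:**
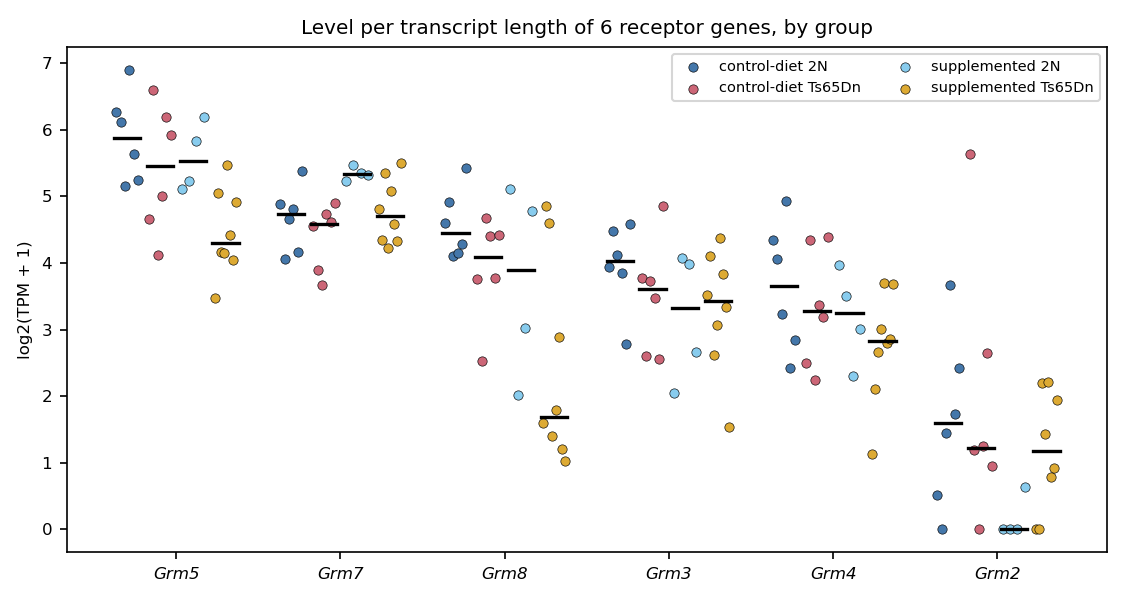
Level of each receptor transcript as log2(TPM + 1), a length-scaled share (vertical axis), for the 6 genes ordered by mean TPM (horizontal axis). Points are libraries coloured by group and bars are group medians; Grm5 and Grm7 lie at the top, Grm2 at the bottom, and the other three overlap.

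No receptor gene was called in any comparison. A gene counted as called at a Benjamini-Hochberg adjusted p under 0.05 over all 19967 tested genes, by edgeR's quasi-likelihood test. Between genotypes on the control diet 0 of 6 receptor genes were called, against 0.336% of all tested genes, and between genotypes after supplementation 0 of 6 against 0.18%. For supplemented against control-diet Ts65Dn it was 0 of 6 against 0.13%, and for supplemented against control-diet 2N 0 of 6 against 0.00501%. For the interaction, which asks whether the genotype difference changed with diet, it was 0 of 6 against 0.00501%.

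DESeq2 and limma-voom also called 0 receptor genes in every comparison. At an unadjusted p under 0.05 the counts by edgeR were 0, 1 (Grm2), 3 (Grm5, Grm7 and Grm8), 1 (Grm2) and 0, in the same order. By edgeR all tested genes passed this looser threshold at rates of 10.9%, 9.49%, 9.62%, 6.92% and 8.43%. DESeq2 gave 0, 1, 3, 1 and 1 receptor genes there, and limma-voom 0, 1, 2, 2 and 0. The shares of all genes passing by those methods are not given, so these counts are not read as a result. The comparisons share groups and are not independent of each other. The p-values measure the spread between these animals, and no label gives the litters, through which the diet was given.

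**Figure D2:**
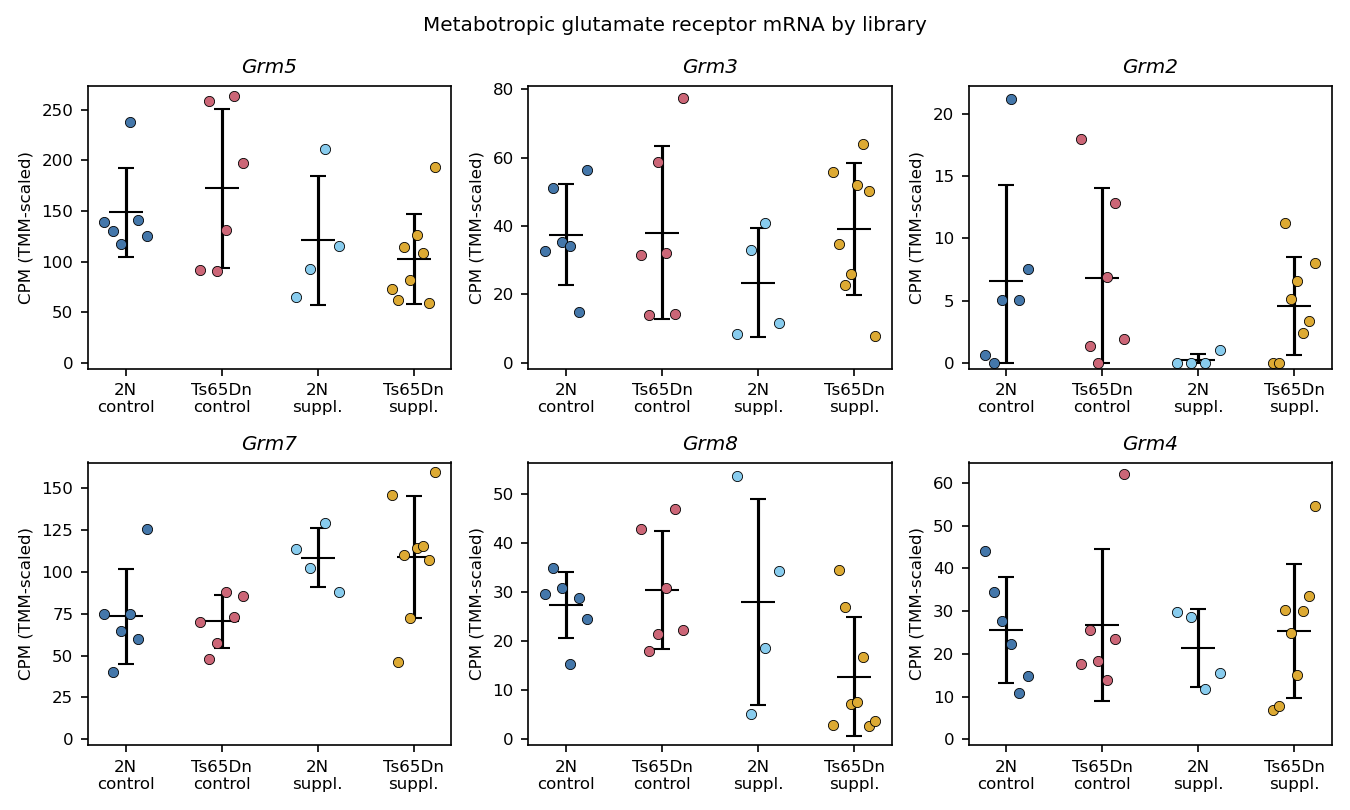
TMM-scaled CPM (vertical axis) of each receptor gene in the 4 groups (horizontal axis; control, control diet; suppl., supplemented). Points are libraries, the long bar is the mean and whiskers are 1 SD, stopped at 0 where they would pass it; the groups overlap for every gene in every comparison.

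Grm5, the phospholipase C-coupled receptor of group I, was lowest on average in supplemented Ts65Dn. In control-diet 2N it ran from 118 CPM through a median of 135 to 238. In control-diet Ts65Dn the lowest, median and highest values were 91.2, 165 and 263 CPM. Supplemented 2N libraries had 64.9, 93.1, 212 and 116 CPM. Supplemented Ts65Dn ran from 59.4 through a median of 95.4 to 193 CPM. The 4 groups overlapped, although 4 of 8 supplemented Ts65Dn libraries lay below every control-diet Ts65Dn library and 7 of 8 below their mean.

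The log2 fold change of Grm5 in supplemented against control-diet Ts65Dn was -0.75 (SE 0.30, 95% interval -1.35 to -0.16), with an adjusted p of 0.30 by edgeR. This was the smallest adjusted p of any receptor gene in the 5 comparisons. The genotype difference on the control diet was 0.21 (SE 0.32, interval -0.43 to 0.85, adjusted p = 0.93), smaller than its error. After supplementation it was -0.24 (SE 0.33, adjusted p = 0.98), and for diet in 2N it was -0.29 (SE 0.36, adjusted p = 1). The interaction was -0.46 (SE 0.46, adjusted p = 0.94), so a change of the genotype difference with diet was not resolved.

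Several library measures stood beside the lower Grm5 in supplemented Ts65Dn. The first part of the animal identifiers, 14 to 17, has no stated meaning and is spread unevenly over the groups. With it as a factor the log2 difference was -0.44. Within prefix 16, which held only 2 libraries of each Ts65Dn group, it was -1.02. It was -0.52 without the 6 libraries under 1 CPM of Chat, and -1.43 with the glial marker score as a covariate. With the mitochondrial rRNA share as a covariate it was -0.88. The direction was negative in all 13 other settings and in all 14 fits that left out 1 library, where it lay between -0.93 and -0.58, and adjusted p stayed at or above 0.104 in the first and 0.215 in the second.

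Grm2, a group II receptor that limits glutamate release from terminals, was near its detection limit. No read was assigned to it in 7 of 24 libraries, and its highest count was 202. Control-diet 2N libraries ran from 0 through a median of 5.05 to 21.2 CPM, and control-diet Ts65Dn from 0 through 4.42 to 17.9. Supplemented 2N libraries had 0, 0, 0 and 1.005 CPM. Supplemented Ts65Dn ran from 0 through 4.28 to 11.2 CPM. In the 3 supplemented 2N libraries at 0, a count of 0 allows up to 0.215, 0.312 and 0.282 CPM (3 counts, counting error only), and the fourth held 13 counts.

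The supplemented 2N group was thus low for Grm2, but it overlapped both groups it was compared with, since each also held libraries at 0. The log2 fold change was -4.63 against control-diet 2N (SE 2.11, interval -8.88 to -0.37, adjusted p = 0.63 by edgeR). It was 4.11 for supplemented Ts65Dn against supplemented 2N (SE 2.02, interval 0.04 to 8.19, adjusted p = 0.52). Both values rest on the 13 counts of supplemented 2N 4. Without that library the group is at 0 and the fits gave -8.95 and 8.44, sizes that no count in the group sets. The genotype difference on the control diet was 0.05 (SE 1.52) and the diet difference in Ts65Dn -0.57 (SE 1.41), with intervals that span more than 5 log2 units.

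Grm3, the other group II receptor, found in astrocytes as well as neurons, was detected in every library with 75 to 713 counts. It ran from 14.8 through a median of 34.8 to 56.2 CPM in control-diet 2N, and from 14.1 through 31.8 to 77.4 in control-diet Ts65Dn. Supplemented 2N libraries had 8.39, 33.0, 40.9 and 11.7 CPM. Supplemented Ts65Dn ran from 7.81 through 42.5 to 63.8 CPM. Every group held libraries under 15 CPM, and the spread within groups was larger than any difference between the group means compared.

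The control-diet genotype difference of Grm3 was 0.02 on the log2 scale (SE 0.50, interval -0.99 to 1.04, adjusted p = 1.0 by edgeR), and the diet difference in Ts65Dn was 0.04 (SE 0.47, interval -0.91 to 0.99). Supplemented 2N stood lower than the groups it was compared with, by -0.67 against control-diet 2N (SE 0.57, adjusted p = 1). Supplemented Ts65Dn exceeded it by 0.74 (SE 0.55, adjusted p = 0.86). The control-diet genotype and Ts65Dn diet intervals reached about 1 log2 unit on both sides of 0. With supplemented 2N the intervals were -1.83 to 0.49 (against control-diet 2N) and -0.38 to 1.85 (supplemented Ts65Dn against it).

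Grm4, a group III receptor of presynaptic terminals, had similar mean CPM in the 4 groups. Control-diet 2N ran from 10.8 through a median of 25.02 to 44.0 CPM, and control-diet Ts65Dn from 13.9 through 20.9 to 62.0. Supplemented 2N libraries had 29.8, 28.6, 11.8 and 15.6 CPM. Supplemented Ts65Dn ran from 6.95 through 27.4 to 54.6 CPM. The ranges overlapped throughout, with 1 high library each in control-diet Ts65Dn (replicate 6) and supplemented Ts65Dn (replicate 8). As TPM the means were 13.9 ± 9.52 in control-diet 2N (SD, n = 6), 10.9 ± 7.13 in control-diet Ts65Dn (n = 6), 8.99 ± 4.59 in supplemented 2N (n = 4) and 6.62 ± 3.75 in supplemented Ts65Dn (n = 8), which differed by less than the SD of control-diet 2N. These TPM carry no TMM factors and depend on the deposited lengths.

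Log2 fold changes of Grm4 were 0.06 between genotypes on the control diet (SE 0.55) and 0.24 after supplementation (SE 0.59). They were -0.08 for diet in Ts65Dn (SE 0.51) and -0.26 for diet in 2N (SE 0.62). Adjusted p by edgeR was 0.99 or above in all 4, and each interval reached about 1 log2 unit on both sides of 0. Leaving out control-diet Ts65Dn 6 turned the control-diet genotype value to -0.38 and the Ts65Dn diet value to 0.36.

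Grm7, the group III receptor of the presynaptic active zone with low affinity for glutamate, had the narrowest spread, with a coefficient of variation of 35.5% over 24 libraries. It ran from 40.2 through a median of 69.7 to 125 CPM in control-diet 2N and from 47.8 through 71.5 to 88.1 in control-diet Ts65Dn. Supplemented 2N libraries had 114, 102, 129 and 87.96 CPM. Supplemented Ts65Dn ran from 45.9 through 112 to 159 CPM. Of the supplemented Ts65Dn libraries, 6 of 8 lay above every control-diet Ts65Dn library and 1 below all of them, and all 4 supplemented 2N libraries lay above the control-diet 2N mean.

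The log2 fold change of Grm7 with supplementation was 0.63 in Ts65Dn (SE 0.29, interval 0.04 to 1.21, adjusted p = 0.46 by edgeR) and 0.56 in 2N (SE 0.34, interval -0.12 to 1.25, adjusted p = 0.95). Genotypes differed by -0.06 on the control diet (SE 0.31) and by 0.01 after supplementation (SE 0.33). The interaction was 0.06 (SE 0.45, interval -0.84 to 0.97). The diet value in Ts65Dn was positive in all 13 other settings, from 0.37 to 0.95, with an adjusted p of 0.212 or more. The lowest of these came with the mitochondrial rRNA share as a covariate and the 2 few-gene libraries left out. The highest came within prefix 16, with 2 libraries per group.

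Grm8, a presynaptic group III receptor with high affinity for glutamate, was low in most supplemented Ts65Dn libraries. Control-diet 2N ran from 15.4 through a median of 29.2 to 34.8 CPM, and control-diet Ts65Dn from 17.9 through 26.6 to 46.8. Supplemented 2N libraries had 53.7, 5.21, 18.7 and 34.2 CPM. Supplemented Ts65Dn ran from 2.83 through 7.39 to 34.4 CPM, with counts as low as 10. Here 6 of 8 supplemented Ts65Dn libraries lay below every control-diet Ts65Dn library, and replicates 2 and 3 lay within the control range.

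The log2 fold change of Grm8 in supplemented against control-diet Ts65Dn was -1.24 (SE 0.57, interval -2.39 to -0.09), with an adjusted p of 0.45 by edgeR. Against supplemented 2N it was -1.12 (SE 0.63, interval -2.39 to 0.15, adjusted p = 0.66). The control-diet genotypes differed by 0.15 (SE 0.61) and the 2N diets by 0.03 (SE 0.68). The interaction was -1.28 (SE 0.89, interval -3.06 to 0.51, adjusted p = 0.82).

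The share of mitochondrial rRNA was highest in supplemented Ts65Dn, where Grm8 was lowest. With that share as a covariate the Ts65Dn diet value was -0.70 (adjusted p = 0.82). With the identifier prefix as a factor it was -1.80, and with the glial marker score as a covariate it was -0.95. Leaving out 1 library gave -1.64 to -1.07. Across 24 libraries, after subtraction of group means, Grm8 and the astrocyte marker score had a Pearson r of -0.64. Of all pairs of a receptor gene and a cell type marker score, this r was the largest in size. It is given as a description over libraries that share depth and capture. The part of astrocyte RNA in the Grm8 result was not tested on its own.

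**Figure D3:**
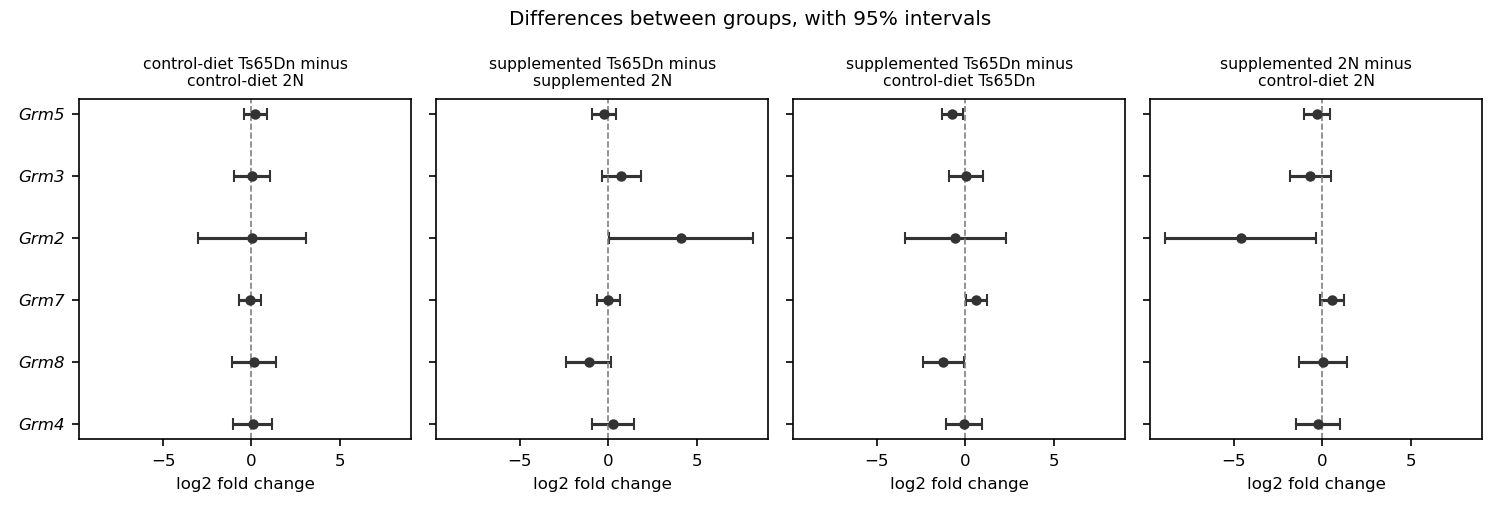
Log2 fold change (horizontal axis) of each receptor gene (vertical axis) in the 4 pairwise comparisons, with 95% intervals from edgeR. The widest intervals are those of Grm2, and no gene had an adjusted p under 0.05.

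Grm5 and Grm7 were the most abundant and had diet values of opposite sign, so their counts were set against each other within each library. This ratio was chosen after the values were seen and is given without a test. Its level depends on transcript length, and only its spread between libraries is described. The Grm5 to Grm7 count ratio ran from 1.003 through a median of 2.11 to 3.24 in control-diet 2N, and from 1.32 through 1.95 to 5.41 in control-diet Ts65Dn. It was 0.572, 0.910, 1.64 and 1.32 in supplemented 2N, and ran from 0.502 through 1.08 to 1.35 in supplemented Ts65Dn. Grm7 counts exceeded Grm5 counts in 2 of 4 supplemented 2N and 3 of 8 supplemented Ts65Dn libraries, and in no control-diet library.

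On the TPM scale the median ratios were 2.75, 1.72, 1.16 and 0.852 in the same order of groups. Under 1 were 1 of 6 control-diet 2N, 0 of 6 control-diet Ts65Dn, 2 of 4 supplemented 2N and 6 of 8 supplemented Ts65Dn libraries. The summed CPM of the 6 genes had medians of 306, 334, 268 and 300.1, while their summed TPM had medians of 151, 126, 121 and 80.4. The summed TPM ran from 96.6 to 216 in control-diet 2N and from 50.7 to 114 in supplemented Ts65Dn. Supplemented Ts65Dn thus had the lowest median on that scale, with overlapping ranges and no test, while supplemented 2N had the lowest as CPM. The deposited TPM carry no TMM factors and depend on the deposited lengths. The mitochondrial rRNA share was also highest in supplemented Ts65Dn, at 30.7% of counts, and its part in the lower TPM was not tested. The count ratio is free of library scaling, and other differences between the libraries remain in it.

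**Figure D4:**
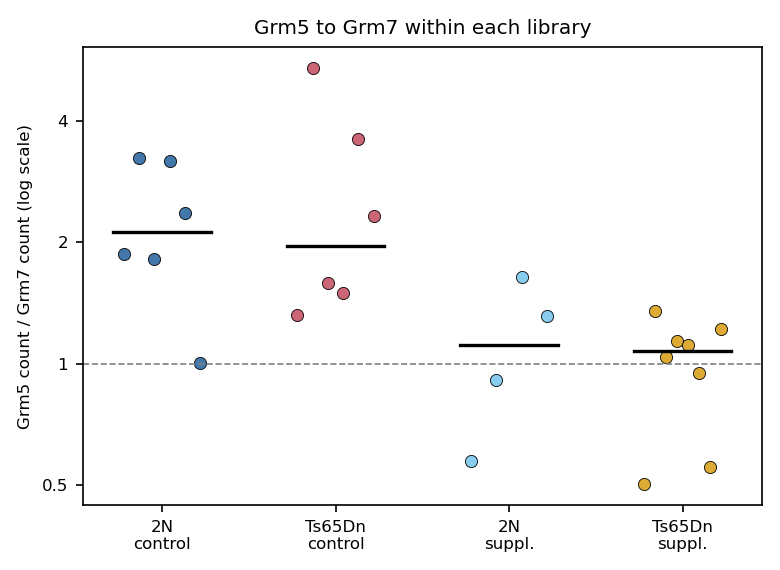
Ratio of Grm5 to Grm7 counts in each library (vertical axis, log scale) by group (horizontal axis). Points are libraries, bars are medians and the dashed line is an equal count; control-diet libraries lie between 1.003 and 5.41 and supplemented ones between 0.502 and 1.64.

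The receptor genes did not vary as a block among themselves. After subtraction of group means, pairwise Pearson r of log2 CPM over the 24 libraries lay between -0.38 (Grm2 with Grm3) and 0.41 (Grm2 with Grm7), as a description. Grm5 and Grm7 had r = 0.26, and Grm7 and Grm8 had r = -0.35.

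Other genes were ranked by the same measure among 13532 candidates, and of the 3 most alike those reported are named for each receptor, with no p. For Grm5 these were Lzts1 (r = 0.74), which encodes a protein of the postsynaptic density, Wdr41 (0.73) and Fnbp1 (0.73). For Grm7 they were Ptbp1 (0.75), a splicing regulator, and Als2cl (0.72). For Grm8 they were Abcc10 (0.71), a transporter of the ABC family, Mrpl23 (0.70), a mitochondrial ribosomal protein, and Dhx8 (0.70).

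For Grm2 the most alike were Prr7 (0.80), a postsynaptic membrane protein, Alkbh3 (0.76) and Xrcc3 (0.75). For Grm3 they were Srrd (0.76), Iars (0.72), an aminoacyl-tRNA synthetase, and Ttc9c (0.72). For Grm4 they were Hspg2 (0.76), which encodes the basement membrane proteoglycan perlecan, Grid2ip (0.73) and Hdac7 (0.71), a histone deacetylase. Without the 2 few-gene libraries, 9 of the 18 genes stayed among the 3 most alike, and none of those of Grm8 did (Abcc10 at rank 13, Mrpl23 at 5 and Dhx8 at 14). Lzts1, Prr7, Hspg2 and Ttc9c were among those that ranked first.

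The signalling genes around the receptors were read from 5 lists with 95 genes in all, every one of them tested. On the control diet, 54 had a positive and 41 a negative Ts65Dn minus 2N value, with a median of 0.19 against -0.02 over all tested genes. At an unadjusted p under 0.05, 16 were higher and 5 lower, where 10.9% of all tested genes passed in either direction. Called was 1 of 95, against 0.336% of all tested genes. This was Shank1, a postsynaptic scaffold that links Homer-bound group I receptors to the density. It was 1505 ± 565 CPM in control-diet Ts65Dn (SD, n = 6) and 819 ± 143 in control-diet 2N (n = 6). Its log2 fold change was 0.88 (SE 0.21, adjusted p = 0.047 by edgeR), with 5 of 6 libraries above the 2N mean and overlapping ranges.

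The call of Shank1 held in 2 of 12 fits that left out 1 library, those without control-diet Ts65Dn 2 or 4. The glial marker score averaged 0.42 in control-diet 2N (0.153 to 0.672) and -0.53 in control-diet Ts65Dn (-1.25 to 0.092). These ranges do not overlap, so a fit with that score cannot separate it from genotype on the control diet. With that score as a covariate the log2 difference of Shank1 was 0.02, and without the libraries under 1 CPM of Chat it was 0.37. limma-voom gave 0.63 (adjusted p = 0.20), and within prefix 17 the value was 1.19 (adjusted p = 0.30). The call held with DESeq2 (0.95, adjusted p = 0.015), with DESeq2 size factors in edgeR, without a filter and with the mitochondrial rRNA covariate (0.97, adjusted p = 0.0022), the last also when the 2 few-gene libraries were left out. It held in 5 of 13 other settings. By list, positive values numbered 3 of 13 for glutamate release and uptake, 14 of 22 for the Gq branch, 15 of 26 for the Gi branch, 16 of 22 for scaffolds and partners, and 6 of 12 for desensitisation. Not called but with the smallest p of their lists were Adcy1, a calcium-stimulated adenylyl cyclase (1.33, SE 0.34, adjusted p = 0.072), and Dgkz, which removes diacylglycerol (0.80, SE 0.22, adjusted p = 0.11). Rgs8 and Rgs14, which speed the turn-off of G proteins, had -1.07 (SE 0.38, adjusted p = 0.22) and 3.66 (SE 1.54, adjusted p = 0.32). Gng7, a G protein gamma subunit, had 1.63 (SE 0.72), Slc17a7, a vesicular glutamate transporter, 2.65 (SE 1.20) and the glutamine transporter Slc38a2 -0.77 (SE 0.37), with adjusted p of 0.36 to 0.43.

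In supplemented against control-diet Ts65Dn, 34 of the 95 genes had positive and 61 negative values, with a median of -0.17 against 0.04 over all tested genes. At an unadjusted p under 0.05, 5 were higher and 24 lower, where 9.62% of all tested genes passed in either direction. Called were 2 of 95, both lower, against 0.13% of all tested genes. Adcy1 fell from 442 ± 364 CPM (SD, n = 6) to 168 ± 31.8 (n = 8), a log2 change of -1.39 (SE 0.31, adjusted p = 0.046 by edgeR), with 8 of 8 libraries below the control-diet mean. The groups overlapped, at 116 to 217 CPM with supplementation against 133 to 1108 CPM without.

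The scaffold list had 19 of 22 negative values and a median of -0.46, with 0 called. Homer2, which tethers group I receptors to internal calcium channels, had -1.88 (SE 0.44, adjusted p = 0.065), and Dlg4, the PSD-95 scaffold, had -0.68 (SE 0.20, adjusted p = 0.18). Slc17a7, also a marker of excitatory neurons, had -4.98 (SE 1.19, adjusted p = 0.066), and the glial glutamate transporter Slc1a2 had -0.41 (SE 0.17, adjusted p = 0.31). The desensitisation genes Rgs14 and Ppp3ca, a calcineurin subunit, had -5.10 (SE 1.46, adjusted p = 0.18) and -0.79 (SE 0.26, adjusted p = 0.23).

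In that comparison most markers of excitatory neurons had values of the same sign as these genes. The summed CPM of 7 such markers was 160 to 849 in control-diet 2N, 295 to 3557 in control-diet Ts65Dn, 99.5 to 286 in supplemented 2N and 99.6 to 617 in supplemented Ts65Dn, and Neurod6 was at 0 in every supplemented 2N library. Between supplemented and control-diet Ts65Dn 6 of 7 had negative values and 1 was called lower, against 0.13% of all tested genes. There 10 of 10 cholinergic markers had positive values with 0 called. Between control-diet genotypes 3 of the 7 excitatory markers were positive and 4 negative (median -0.21). Of them 1 was called higher, against 0.336% of all tested genes. For diet in 2N all 7 were negative (median -2.20) with 0 called, while the signalling genes had 45 positive and 50 negative values. The part of RNA from excitatory neurons in these differences was not tested.

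The call of Adcy1 depended on the libraries in the fit. Without the 6 libraries under 1 CPM of Chat, control-diet Ts65Dn 3, 5 and 6 among them, its value was -0.05 and it was not called. With prefix as a factor it had -0.63 (adjusted p = 0.71 by edgeR), and within prefix 16, with 2 libraries per group, it had 0.18. limma-voom gave an adjusted p of 0.42. The call held in 4 of 13 other settings: DESeq2 (-1.44, adjusted p = 0.019), DESeq2 size factors in edgeR (-1.44, adjusted p = 0.045), no filter (-1.38, adjusted p = 5.5e-06) and the mitochondrial rRNA covariate (-1.75, adjusted p = 0.0030). Without control-diet Ts65Dn 3 the value was -0.86, and the call held in 4 of 14 fits that left out 1 library (control-diet Ts65Dn 1, 2 or 4, or supplemented Ts65Dn 8).

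Between the supplemented genotypes 0 of the 95 genes were called, with 46 positive and 49 negative values and a median of -0.01 against 0.09 over all tested genes; 1 gene was higher and 2 lower at an unadjusted p under 0.05 (9.49% of all tested genes in either direction). The smallest p were those of Dgkz, with 0.68 (SE 0.24, adjusted p = 0.37 by edgeR) and all 8 libraries above the 2N mean, and of the calmodulin genes Calm3, with -0.58 (SE 0.21, adjusted p = 0.41), and Calm2, with -0.66 (SE 0.27, adjusted p = 0.43). Glul, the glutamine synthetase of astrocytes, had 0.47 (SE 0.24), Plcb2, a phospholipase C, 3.58 (SE 1.96) and Slc17a8, another vesicular glutamate transporter, -2.89 (SE 2.04). The adenylyl cyclases Adcy5 and Adcy2 had 0.53 (SE 0.34) and -0.45 (SE 0.31), and the phosphatase genes Ppp1cc and Ppp3ca -0.78 (SE 0.52) and 0.39 (SE 0.30). The adjusted p of these genes were 0.56 to 0.88.

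For diet in 2N, 0 of 95 were called, with 45 positive and 50 negative values and a median of -0.04 against -0.06; 1 gene was higher and 2 lower at an unadjusted p under 0.05 (6.92% of all tested genes). Ppp3ca had -0.81 (SE 0.32, adjusted p = 0.57), Slc1a2 -0.50 (SE 0.20, adjusted p = 0.57), and Elfn2, a synaptic adhesion protein that binds group III receptors, 0.62 (SE 0.29, adjusted p = 0.65). Slc17a7 had -2.20 (SE 1.39), the kinase gene Mapk3 -0.84 (SE 0.57), the potassium channel gene Kcnj3 -0.89 (SE 0.48) and Prkar1a, a regulatory subunit of protein kinase A, 0.51 (SE 0.31). The scaffold gene Dlgap1 had -0.60 (SE 0.32) and Rgs17 -0.63 (SE 0.36), and the adjusted p of these genes were 0.83 to 1. The interaction called 0 of 95, with 35 positive and 60 negative values and a median of -0.18 against 0.13, and 1 higher and 6 lower at an unadjusted p under 0.05 (8.43% of all tested genes).

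**Figure D5:**
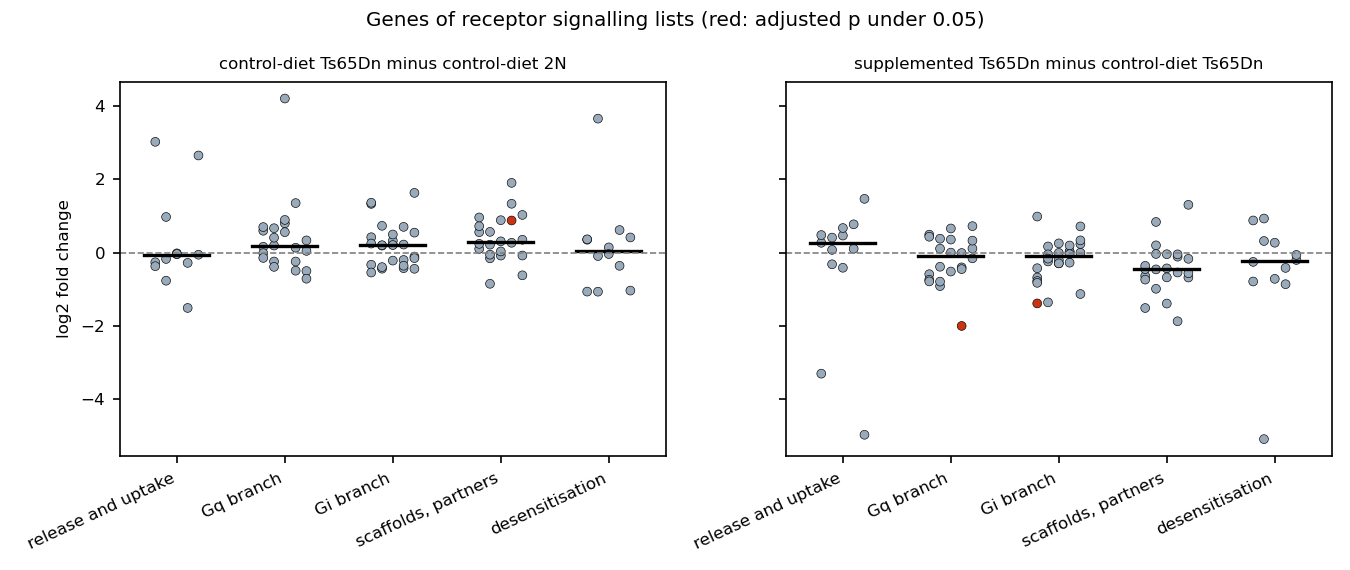
Log2 fold change (vertical axis) of the 95 genes of 5 signalling lists (horizontal axis) between genotypes on the control diet (left) and between diets in Ts65Dn (right). Points are genes, red where the adjusted p is under 0.05 (Shank1 on the left, Adcy1 among the 2 on the right), and bars are list medians.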

How the data were processed

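Total RNA of captured neurons was made into stranded low-input libraries, per the labels' protocols. Trimmomatic 0.39 was used for trimming, STAR for alignment and RSEM for quantification by the authors, per the submitters' processing notes, which name GRCm39 and mm10 without roles, so no coordinates are given. The series table deposited by the authors holds RSEM expected counts without normalization, and its 24 columns equalled the per-sample files, which also hold deposited TPM and gene lengths. Whether counting used strand is not given in the sources used here. Grm2, Grm4, Grm5, Grm7 and Grm8 each overlap 1 gene on the opposite strand, whose reads cannot be told apart if strand was not used. On either strand, Grm2 and Grm3 overlap 1 gene each, Grm4 and Grm7 2 each, Grm8 3 and Grm5 6. Fractional expected counts, from reads shared between genes, occurred for Grm5 in 4 and Grm7 in 5 libraries.

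Expected counts were rounded. Of 55414 identifiers, 52081 matched a symbol in GENCODE M21. Genes were filtered with filterByExpr (minimum count 10), scaled with TMM, and tested two-sided with edgeR 4.0.16 (R 4.3.3), all 24 libraries in 1 fit of 4 group means. Adjusted p are Benjamini-Hochberg values over 19967 genes, and 95% intervals come from the standard errors of the fit. Log2 CPM used a prior count of 2. DESeq2 1.42.0, limma-voom 3.58.1, other filters, scaling, covariates and library sets were alternatives. Scripts were tested on simulated data. Total counts of 4688258 to 13443438 per library limit precision for Grm2 most, and reads carried no molecular identifiers.

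The members and lists were chosen with earlier results of these data known. Named were the 6 receptors, the called genes of each list or else the 2 with the smallest p in each pairwise comparison, and the 3 genes most like each receptor among those with a mean of at least 10 counts. Of the genes this rule names, 2 are not reported here, and counts over the lists include them where they belong.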

Additional observations from a re-analysis of the deposited data

Results flagged for a closer look

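In 4 of 24 groups of values, 1 library of its group stood apart by Dixon's criterion at 95%. That criterion gives about 1 in 20 groups by chance only for normally distributed values. CPM with zeros is not so distributed, so the 4 are not set against chance. Grm5 was 237.53 CPM in control-diet 2N 4, above 118 to 141 CPM in the other five. The same library had the highest Grm2 value of its group, 21.183 CPM. Grm4 was 61.984 CPM in control-diet Ts65Dn 6, above 13.9 to 25.6 CPM in the others. Grm2 was 1.0048 CPM in supplemented 2N 4 and 0 in the other 3 libraries of that group, where any lone nonzero value meets the criterion.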

How the results depend on the processing

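In 0 of 372 receptor values under other settings and 0 of 432 values from fits that left out 1 library was a receptor gene called; the sign turned in 44 and 48 of them. Comparisons are here called control genotype, supplemented genotype, Ts65Dn diet, 2N diet and interaction, and numbers of called genes follow this order. Low counts limit Grm2 most. No paired analysis was possible because replicates were numbered in accession order and nothing in the labels ties animals of one group to those of another.

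All genes called numbered 67, 36, 26, 1 and 1 in the reported fit, and signalling genes 1, 0, 2, 0 and 0. DESeq2 called 459, 542, 349, 286 and 366 genes, with 9 signalling genes for control genotype and 6 for Ts65Dn diet. limma-voom called 3, 55, 4, 7 and 0, with 0 signalling genes for both. Without a filter there were 256, 200, 218, 33 and 125, with 5 and 7 signalling genes and 2 for the interaction. A minimum count of 30 gave 42 for control genotype and 14 for supplemented genotype, with 0 and 1 signalling genes for control genotype and Ts65Dn diet. Fits of the compared groups alone gave 3, 91, 6 and 2 genes, and 0 and 0 signalling genes. With prefix as a factor there were 28 for control genotype, 15 for Ts65Dn diet and 12 for the interaction, and 0 and 0 signalling genes. The mitochondrial rRNA covariate gave 162, 0, 59, 3 and 0, with 6 and 5 signalling genes. The glial covariate gave 0 for control genotype, 58 for supplemented genotype and 9 for the interaction, with 0 and 0 signalling genes. Without the 2 few-gene libraries there were 4, 62, 77, 2 and 11, with 0 and 1 signalling genes. Adding the mitochondrial covariate to that, an alternative chosen after seeing the data, gave 1 for supplemented genotype, 12 for Ts65Dn diet with 0 signalling genes and 3 for 2N diet. Without libraries under 1 CPM of Chat there were 2 for control genotype and 5 for the interaction, with 0 and 0 signalling genes. Within prefix 16, with 2 libraries per compared group, there were 79 for supplemented genotype and 52 for Ts65Dn diet with 0 signalling genes. Within prefix 17, with 4 per compared group, there were 0 for control genotype with 0 signalling genes. The causes were not tested.

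Leaving out 1 library gave 4 to 127 (lowest without control-diet Ts65Dn 3, highest without control-diet Ts65Dn 4), 0 to 72 (supplemented 2N 1; supplemented Ts65Dn 2), 12 to 80 (supplemented Ts65Dn 6; control-diet Ts65Dn 3), 0 to 2 (supplemented 2N 1; supplemented 2N 2) and 1 to 12 genes (supplemented 2N 1; control-diet Ts65Dn 3). Signalling genes ranged from 0 to 7 for control genotype and 0 to 4 for Ts65Dn diet.

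Receptor values that turned sign were all smaller than their standard error in the reported fit. This does not hold for the signalling gene Adcy1, also listed below. Adcy1 had 1.33 (SE 0.34) for control genotype and -1.39 (SE 0.31) for Ts65Dn diet in that fit. Shank1, also listed, had -0.54 for Ts65Dn diet there. With prefix as a factor, Grm2 was 0.88 and Grm3 -0.025 for Ts65Dn diet, Grm4 0.044 for 2N diet and -0.083 for the interaction, and Grm8 -0.059 for 2N diet. With the glial covariate, control genotype values were -0.15 for Grm3, -0.074 for Grm4, 0.15 for Grm7 and -0.34 for Grm8. It also gave Grm4 0.0050 and Shank1 0.029 for Ts65Dn diet, Grm5 0.12 and Grm8 -0.25 for 2N diet, and Grm7 -0.013 for supplemented genotype and -0.16 for the interaction. With limma-voom, control genotype values were -0.27 for Grm3, -0.034 for Grm4 and 0.035 for Grm7, and Grm7 was -0.088 for supplemented genotype and -0.12 for the interaction, and Grm8 -0.53 for 2N diet. With the mitochondrial covariate, Grm2 was -0.25 and Grm8 -0.033 for control genotype, Grm2 0.38 for Ts65Dn diet and Grm8 -0.14 for 2N diet. It gave Grm4 -0.31 and Grm7 -0.054 for supplemented genotype, and Grm4 -0.52 and Grm7 -0.0084 for the interaction. Within prefix 16 the Ts65Dn diet values were 0.60 for Grm4, 0.012 for Shank1 and 0.18 for Adcy1. Within prefix 17 the control genotype value of Grm2 was -0.84. Without libraries under 1 CPM of Chat, control genotype values were -0.72 for Grm3, -0.61 for Grm4 and -0.082 for Adcy1. There Grm4 was -0.0062 for supplemented genotype and 0.39 for Ts65Dn diet, and Grm5 0.27 for supplemented genotype and 0.20 for the interaction. Without the 2 few-gene libraries Grm3 was -0.14 for control genotype. With the mitochondrial covariate added, Grm3 was -0.40 and Grm7 0.062 for control genotype, Grm4 -0.58 and Grm7 -0.16 for supplemented genotype, Grm8 -0.076 for 2N diet, and Grm4 -1.06 and Grm7 -0.22 for the interaction.

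In fits that left out 1 library, control genotype values ranged from -0.51 to 0.89 for Grm2, -0.31 to 0.19 for Grm3, -0.38 to 0.28 for Grm4, -0.18 to 0.16 for Grm7 and -0.014 to 0.27 for Grm8. Supplemented genotype values ranged from -0.016 to 0.44 for Grm4, -0.45 to 0.17 for Grm5 and -0.085 to 0.12 for Grm7. Ts65Dn diet values ranged from -0.13 to 0.38 for Grm3 and -0.33 to 0.36 for Grm4. For 2N diet Grm8 ranged from -0.49 to 0.38, and for the interaction Grm4 from -0.082 to 0.62 and Grm7 from -0.16 to 0.19.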
